A study of Homo sapiens with 4 samples.

Results

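The genes described here encode the enzymes that add poly(A) tails to RNA and the proteins that bind those tails. They were taken from the deposited table by symbol, with PAPOLA, PAPOLG, TENT2, TENT4A, TENT4B and MTPAP as polymerases and PABPC1, PABPC4, PABPN1 and ZC3H14 as binding proteins. All 10 were found among its 13957 genes. The table summarises RNA-seq of the line MDA-MB-231 Fluc, triple-negative breast cancer cells into which a luciferase gene was inserted. Cells were exposed for 2 h to 50 μM cordycepin (3′ deoxyadenosine) or to DMSO, the vehicle, with 2 samples in each group.

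A poly(A) tail is added in the nucleus after the pre-mRNA has been cleaved downstream of a poly(A) signal. Nuclear poly(A)-binding protein stimulates the polymerase and limits the length of the new tail, and cytoplasmic poly(A)-binding proteins then cover the tail and contact the translation initiation factor eIF4G at the cap. Other, noncanonical polymerases extend tails in the cytoplasm, in mitochondria or on nuclear RNAs that are to be trimmed or degraded. Cordycepin lacks the 3′ hydroxyl to which the next nucleotide would be joined, and its triphosphate inhibits polyadenylation in nuclear extracts.

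The table holds 1 mean level per gene, as log2 CPM (read counts scaled to a common library size), over the cordycepin and DMSO samples together. There are therefore no values per sample, no SD and no depth per library, and the differences between genes given below could not be tested. A gene that differs between the groups would be represented by a value between its 2 group levels. Fewer molecules of an RNA per cell and fewer cells with that RNA cannot be told apart. The table also holds a comparison of cordycepin with DMSO made by the authors, which was not used, so no effect of cordycepin is given here. The lowest mean level in the table was 0.56, the median 4.58 and the highest 13.43. Per gene, the 5 genes listed as markers of this line were among the most highly expressed, with mean levels from 8.64 for EGFR to 11.01 for AXL. ESR1 and PGR, the hormone receptor genes of luminal breast cells, have no row in it. The luminal genes FOXA1 and GATA3 and the epithelial genes EPCAM and CDH1 ranged from 2.34 for FOXA1 to 4.48 for GATA3, all below this median per gene. Per kb of gene length, a scale described below, EGFR was above 87.95% of genes and the other markers of the line were above at least 97.89%. On the same scale GATA3 was at 2.72, above the median of 2.43 over all genes. EPCAM was just below that median at 2.40, and FOXA1 and CDH1 were lower, at 0.19 and 1.07. Which of GATA3 and EPCAM lay above the median depended on the measure of length. ERBB2, the HER2 gene, was at 6.49 per gene, above 81.84% of genes, and was thus not low.

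Because cordycepin triphosphate inhibits polyadenylation in nuclear extracts, the annotated 3′ ends of the members' own mRNAs were examined first. The poly(A) signal, to which the cleavage and polyadenylation machinery binds, is most often AATAAA or its variant ATTAAA. The last 40 bases of the GENCODE canonical transcript contained AATAAA for 9 of the 10 members and ATTAAA for ZC3H14. Over the 11603 protein-coding genes of the table, 65.7% of canonical transcripts had AATAAA in these 40 bases, another 15.2% had ATTAAA only and 19.1% had neither. The members' poly(A) signals are therefore the common ones. The windows below have 30 bases in mRNA sense from GENCODE transcripts (GRCh38), with the hexamer in capitals, and are shown for the most and the least expressed polymerase of each nuclear pair, for both tail-binding proteins that act in the nucleus, and for PABPC4.
PAPOLA (chr14:96567079-96567108, plus strand): cattgaaaacacAATAAAaaaaaaacagca
PAPOLG (chr2:60802053-60802082, plus strand): aataagtaatcaAATAAAattgctttgata
TENT4A (chr5:6757015-6757044, plus strand): tctttgatttttAATAAActttggaaacca
TENT4B (chr16:50235265-50235294, plus strand): aatctgcaattcAATAAAggctttgtgttt
PABPN1 (chr14:23326126-23326155, plus strand): atatgtgtcatgAATAAAgttgtttttgaa
ZC3H14 (chr14:88627563-88627592, plus strand): tttaagacaaatATTAAAtacagaattcct
PABPC4 (chr1:39560824-39560853, minus strand): cttacgtttcccAATAAAgaaaaaaaatct

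The hexamer ended 20 bases before the annotated end in PAPOLA, PABPN1 and PABPC4, and 16 bases before it in PAPOLG and ZC3H14. In TENT4A it ended 12 bases and in TENT4B 28 bases before the annotated end. These are annotated positions, and which ends were used in these cells was not measured.

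At the other end of the mRNA, 5′ terminal oligopyrimidine (TOP) mRNAs begin with a C followed by an unbroken run of pyrimidines. Their translation depends on mTOR, and they include the mRNAs of ribosomal proteins. Such a start does not by itself make an mRNA a TOP mRNA, and translation was not measured in these samples. A C at the first base that began a run of at least 5 pyrimidines, counting that C, was present in the canonical transcripts of 4 of the 10 members, among them PABPC4, TENT4A and TENT4B. The same was found for 5.61% of the protein-coding genes of the table. The first 20 bases of these transcripts are given here in mRNA sense, with the pyrimidine run in capitals.
PABPC4 (chr1:39576771-39576790, minus strand): CTCTCTCCgccccgggtcgc
TENT4A (chr5:6713432-6713451, plus strand): CTTCCCCCgcgctgtcgccg
TENT4B (chr16:50153306-50153325, plus strand): CTTCTgtggagccgccgccg

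The fourth was PABPC1, a well-known TOP mRNA, with a run of 12 pyrimidines. A shift of a few bases in the annotated start would change or remove such a run, and start sites were not measured in these cells. The run of TENT4B has the minimum of 5, and the coordinates given below for this gene start upstream of it, at 50152911. The remaining 6 members began with A or G in the annotation, so a run of pyrimidines at their first base was absent.

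The members covered a wide range of expression. PABPC1 had the highest mean level, at 10.55 log2 CPM (about 1497 CPM, rank 41 of 13957 genes), and PAPOLG had the lowest, at 3.31 log2 CPM (9.89 CPM). The median of the 10 members was 6.41 log2 CPM, compared with 4.58 over all genes, and 8 of the 10 lay above that median. Long transcripts collect more reads than short ones at the same number of molecules, and the members' lengths in the table ran from 3876 bases for PABPN1 to 20998 bases for ZC3H14. Genes were therefore compared with one another on a scale per kb, which is the mean log2 CPM less the log2 of the table's gene length in kb. Per kb the median of the members was 3.07, compared with 2.43 over all genes, and 6 of the 10 lay above the latter. In descending order the members per kb were PABPC1, PABPC4, PABPN1, PAPOLA, TENT4A, TENT2, ZC3H14, MTPAP, TENT4B and PAPOLG.

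**Figure D1:**
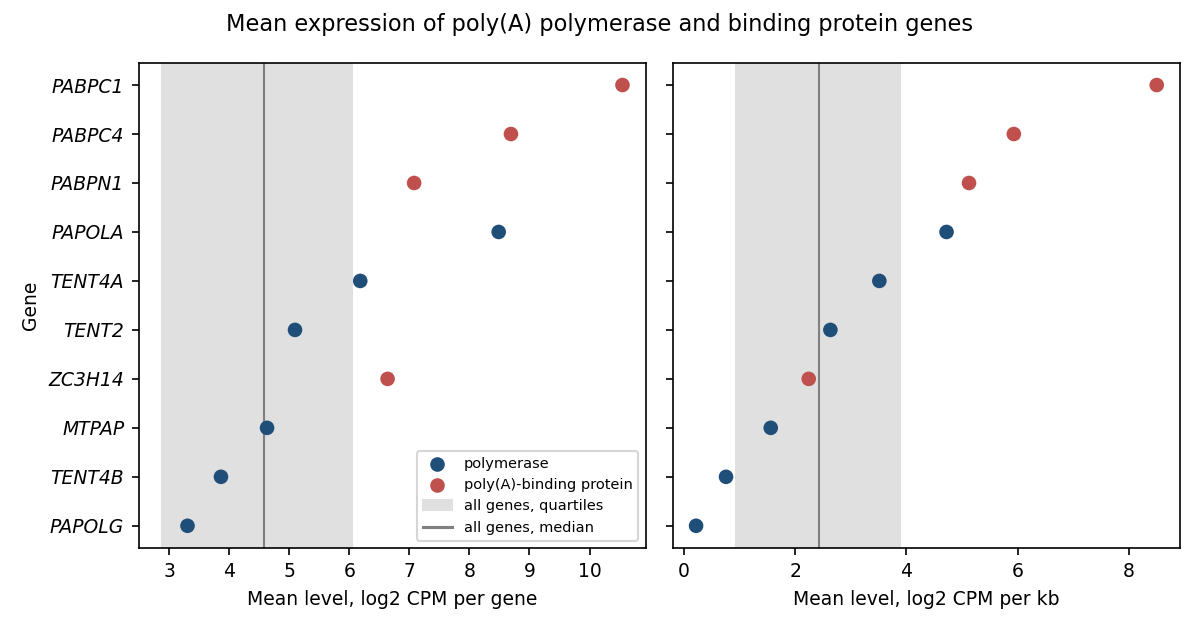
Mean expression of each of the 10 genes over all 4 samples, as log2 CPM per gene (left) and log2 CPM per kb of the gene length in the table (right); each point is the authors' mean with no error available, the grey band spans the quartiles of all 13957 genes and the grey line is their median. PABPC1 is furthest right in both panels, PAPOLG is furthest left, and ZC3H14 moves from above the band to just below the median line when its length of 20998 bases is taken into account.

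PABPC1 encodes the main cytoplasmic poly(A)-binding protein. The gene lies on chromosome 8, from 100685816 to 100722809 of GRCh38 on the minus strand, and its canonical transcript has 15 exons. Its level per kb was 8.50 on the log2 scale (361.1 CPM per kb), higher than 99.25% of the genes in the table. For comparison, the glycolytic enzyme gene GAPDH had 9.32 log2 CPM per kb. PABPC1 has many copies in the genome, among them the intronless gene PABPC3. Of the 2787 windows of 75 bases, the read length, in its canonical transcript, 5.13% had an exact copy elsewhere in the genome, and 2.91% had one in PABPC3. The table gives 80.2 CPM for PABPC3, 22.98 CPM for the pseudogene PABPC1P4 and 2.08 CPM for PABPC1P1, each of which is far lower than the value of PABPC1. How reads that match several places were counted is not given in the sources used here, and the values of PABPC3 and of the pseudogenes are uncertain for that reason.

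PABPC4 encodes a second cytoplasmic poly(A)-binding protein, first described in activated T cells. It is on chromosome 1, from 39560816 to 39576790 on the minus strand, and has 16 exons. Its level was 8.69 log2 CPM (413.4 CPM) and 5.93 per kb (61.0 CPM per kb), above 94.06% of genes. PABPC1 was thus 5.92 times as high as PABPC4 per kb, and accounted for 85.6% of the summed level of both genes. The ratio was 3.90 with the length of all GENCODE exons and 3.98 with that of the canonical transcript, which put PABPC1 at 79.6% and 79.9% of the sum. The annotated PABPC4 exons hold the small nucleolar RNA gene SNORA55, which covers 1.31% of their bases on the same strand, and 10.9% overlap PABPC4-AS1 on the opposite strand.

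PABPN1 encodes the nuclear poly(A)-binding protein. The gene is on chromosome 14, from 23321289 to 23326185 on the plus strand, with 7 exons in the canonical transcript. It had 7.08 log2 CPM and 5.12 log2 CPM per kb (34.9 CPM per kb), above 88.95% of genes per kb. PABPC1 was 10.35 times and PABPC4 1.75 times as high per kb, and with the length of all GENCODE exons these ratios fell to 4.28 and 1.10. PABPN1 shares 39.3% of its exon bases with a read-through gene that starts in its neighbour BCL2L2, named BCL2L2-PABPN1, on the same strand. The table lists that gene at 1.98 CPM, compared with 135.2 CPM for PABPN1, and reads in the shared exons cannot be assigned to either gene by position. In addition, 4.2% of the 75-base windows of the PABPN1 transcript had an exact copy inside the gene TAF1.

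ZC3H14 encodes a zinc finger protein that binds poly(A) in the nucleus. The gene is on chromosome 14, from 88562970 to 88627596 on the plus strand. Of the members it is the one whose place depended most on length. Per gene it had 6.64 log2 CPM (99.5 CPM, above 83.55% of genes), but with 20998 bases of exon its level per kb was 2.25 (4.74 CPM per kb), above 46.63% of genes. PABPN1 was 7.36 times as high per kb, and 13.6 times with the canonical transcripts as lengths. That of ZC3H14 has 18153 bases, and which transcripts these cells used was not measured. Per gene the ratio was 1.36. Of the ZC3H14 exon bases, 27.8% overlap the gene EML5 on the opposite strand. The libraries were stranded, but whether strand was used in counting is not given in the sources used here, which also applies to the opposite-strand overlaps of PABPC4 and MTPAP.

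Among the polymerases, PAPOLA had the highest level. It encodes the canonical poly(A) polymerase α, which acts with the cleavage and polyadenylation machinery in the nucleus. PAPOLA is on chromosome 14, from 96501433 to 96567111 on the plus strand, with 22 exons in the canonical transcript. Its level was 8.49 log2 CPM (358.9 CPM) and 4.72 per kb (26.4 CPM per kb), above 85.27% of genes. PAPOLG, which encodes the related nuclear poly(A) polymerase γ, is on chromosome 2, from 60756253 to 60802086 on the plus strand. It had 0.22 log2 CPM per kb (1.17 CPM per kb), above 15.91% of genes. PAPOLA was thus 22.6 times as high as PAPOLG per kb and made up 95.8% of their sum. With the canonical transcript as the length the ratio was 59.1. No 75-base window of the PAPOLG transcript had an exact copy elsewhere, and 1.13% of those of PAPOLA had one, all inside the gene EIF2AK4.

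TENT4A and TENT4B encode related noncanonical polymerases that act largely in the nucleus and can also place other nucleotides in the tail. TENT4A (chromosome 5, from 6713432 to 6757044) had 3.51 log2 CPM per kb (11.4 CPM per kb), above 69.24% of genes. TENT4B (chromosome 16, from 50152911 to 50235310) had 0.76 log2 CPM per kb (1.69 CPM per kb), above 22.36% of genes. Within this pair TENT4A was 6.75 times as high per kb. The length of GENCODE exons is the length in the table for both genes, so it gives the same ratio. With canonical transcripts as lengths the ratio was 8.37. Neither transcript had a 75-base window copied elsewhere, and neither gene shares exon bases with another gene. Both nuclear pairs thus held 1 gene above and 1 below the median of all genes per kb.

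TENT2 encodes the cytoplasmic poly(A) polymerase known as GLD2, which lengthens the tails of selected mRNAs and microRNAs. It lies on chromosome 5, from 79612120 to 79686648, and had 5.10 log2 CPM and 2.63 per kb (6.21 CPM per kb), above 53.81% of genes. MTPAP encodes the polymerase that adenylates mitochondrial transcripts. It is on chromosome 10, from 30309801 to 30374448 on the minus strand, and had 4.63 log2 CPM and 1.56 per kb (2.96 CPM per kb), above 34.68% of genes. Of the MTPAP exon bases, 19.8% overlap other annotated genes on the same strand, the pseudogene GOLGA2P6 and the microRNA gene MIR7162. A further gene, without a symbol, overlaps 1120 of their 8341 bases on the opposite strand. PAPOLA was 4.25 times as high as TENT2 and 8.93 times as high as MTPAP per kb, and with canonical transcripts as lengths the ratios were 11.9 and 17.8.

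Summed over the 6 polymerases, the level per kb was 49.8 CPM per kb. PAPOLA made up 52.9% of this, TENT4A 22.9%, TENT2 12.5%, MTPAP 5.93%, TENT4B 3.40% and PAPOLG 2.34%. With canonical transcripts as lengths PAPOLA made up 73.5%, TENT4A 13.3% and TENT2 6.20%. The 4 binding protein genes summed to 461.7 CPM per kb, of which PABPC1 made up 78.2%, PABPC4 13.2%, PABPN1 7.56% and ZC3H14 1.03%. With the length of all GENCODE exons PABPC1 made up 65.8%, PABPN1 15.4% and ZC3H14 1.99%. These are proportions of RNA and not of protein or enzyme activity.

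The measure of length affected the values more than the order. With the length of all GENCODE exons all 10 members kept the place they had per kb, but for 4 of them this is the length in the table. With the canonical transcript 8 kept it, as PAPOLA and PABPN1 changed places. Per gene, without length, 5 kept their place. The value of PABPC1 moved most between the table's length and GENCODE exons, from 8.50 to 7.29, because GENCODE annotates 9546 bases of exon where the table has 4147. PAPOLA rose from 4.72 to 6.31 when its canonical transcript of 4515 bases replaced 13607 bases of exon.

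**Figure D2:**
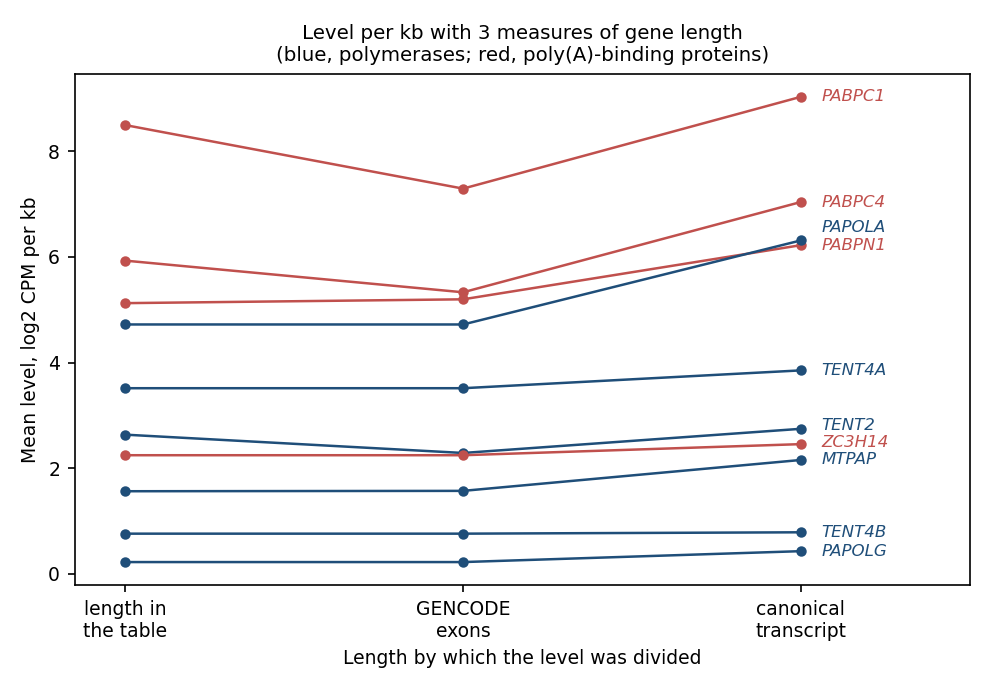
Mean level of each of the 10 genes as log2 CPM per kb, with the gene length of the deposited table, the union of GENCODE exons or the GENCODE canonical transcript as the length; each line is 1 gene, with polymerases in blue and poly(A)-binding proteins in red. PABPC1 stays highest and PAPOLG lowest throughout, and the lines of PAPOLA and PABPN1 cross between GENCODE exons and canonical transcripts.

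Of 8 further nucleotidyltransferases, 6 have a row in the table and PAPOLB and TENT5D have none. Their median was 0.98 log2 CPM per kb. With the length in the table or GENCODE exons, 0 of the 6 were above the median of all genes, whereas per gene and per kb of canonical transcript 1 was, TUT4, at percentiles of 71.68 and 54.57. The highest were the terminal uridylyltransferase genes TUT4 (1.82 log2 CPM per kb) and TUT7 (1.36), which add U rather than A to RNA ends. TUT1, which encodes the uridylyltransferase of U6 RNA, was at 0.49. The TENT5 genes, which encode a separate group of cytoplasmic polymerases, ranged from -0.31 for TENT5A through 0.83 for TENT5B to 1.13 for TENT5C. PAPOLG, at 0.22 per kb, was below 5 of these 6 genes, whereas per gene, at 3.31, it was above TENT5A, TENT5B and TUT1. Of 5 further poly(A)-binding protein genes, PABPC3 (4.57 log2 CPM per kb) and PABPC1L (3.80) have a row, and PABPC4L, PABPC5 and PABPN1L have none. As described for PABPC1, the value of PABPC3 is uncertain, since how reads matching several places were counted is not given.

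Lists of genes that make, remove or connect to the tail are given beside the members. The 16 cleavage and polyadenylation factors had a median of 3.57 log2 CPM per kb, with 12 above the median of all genes. They ranged from 1.79 for FIP1L1, which links the polymerase to the complex, to 4.93 for CPSF1, its largest scaffold. PAPOLA, at 4.72, lay near the top of that range and PAPOLG below its lower end. With canonical transcripts as lengths PAPOLA, at 6.31, was above all 16 factors, the highest of which was then SYMPK at 5.41, and per gene, at 8.49, it was also above the highest, CPSF1 at 7.53. The 13 genes for deadenylases, which shorten the tail, and for their subunits had a median of 3.25. Of these, 9 were above the median of all genes. They ranged from 1.41 for CNOT2 to 4.35 for CNOT1, the scaffold of the CCR4-NOT complex. Which gene of this list was lowest depended on the length. It was PARN (1.33) with GENCODE exons and CNOT6L (1.51) with canonical transcripts, where CNOT2 was at 3.73 and CNOT3 was highest at 4.74. Per gene, 14 of the 16 cleavage factors and all 13 genes of the deadenylase list were above the median of all genes. Of the 11603 protein-coding genes, 6595 were above it. The 9 genes for proteins that contact PABP had a median of 3.89. Of these, EIF4G1, the eIF4G gene, was highest, at 7.18, so that PABPC1 was 2.49 times as high per kb. That ratio was 1.15 with the length of all GENCODE exons. PAIP2B, which encodes a PABP-binding inhibitor of translation, was lowest, at -0.69. Over the members the median was 3.07, and their range from 0.22 to 8.50 included the whole range of the cleavage factors and of the deadenylase list. No test was made of these lists, as each gene has 1 value.

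**Figure D3:**
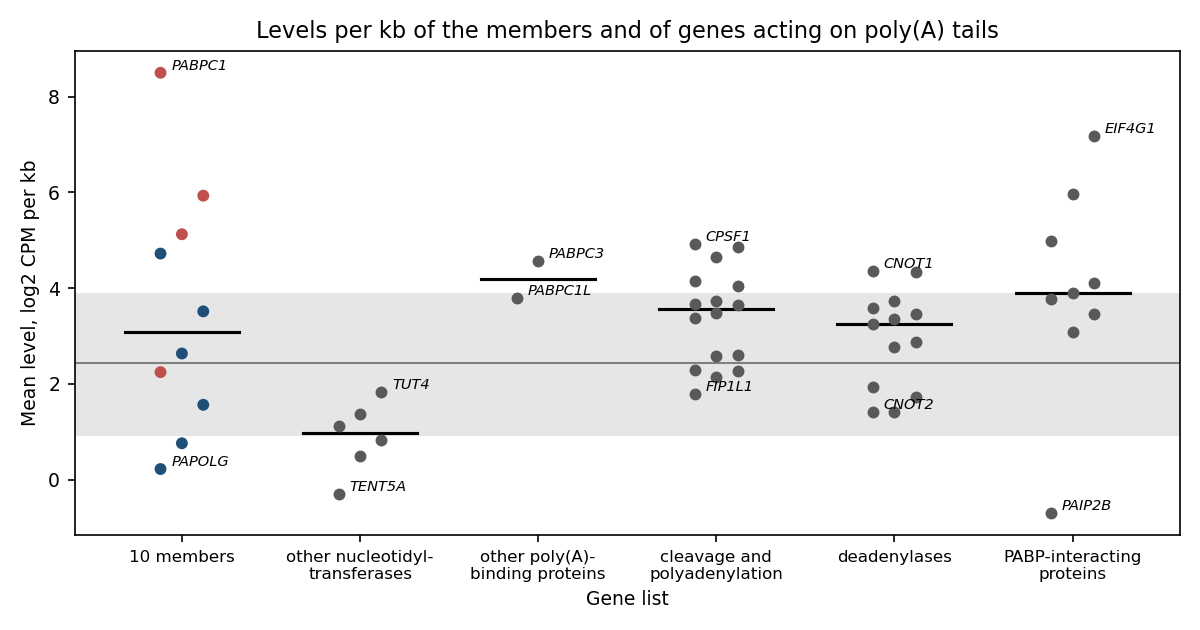
Mean level as log2 CPM per kb of the gene length in the table for the 10 members (polymerases in blue, binding proteins in red) and for 5 lists of genes that act on or with poly(A) tails; each point is 1 gene, black bars are list medians, names mark the highest and lowest gene of each list, and the grey band and line are the quartiles and median of all genes. The members span a wider range than the 2 lists of tail-making and tail-removing factors, from PAPOLG at 0.22 to PABPC1 at 8.50.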

How the data were processed

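The authors sequenced 4 samples, 2 with cordycepin and 2 with DMSO, as stranded, ribosomal RNA-depleted libraries with 75 bp paired-end reads. The paper's methods state mapping to GRCh38.p13 and counting with rsubread, whereas the submitters' processing notes name TopHat, HTSeq, DESeq and Cufflinks with hg38. Normalization and the filter on low counts are not given in the sources used here. The authors' deposited table holds 1 mean log2 CPM and 1 length per gene. It has 0 columns of values per sample, so depth is unknown and no test could be made. Its other columns are a fold change of cordycepin against DMSO with an F statistic, p-value and adjusted p-value, which are the authors' own comparison and were not used.

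Levels per kb were obtained by subtracting log2 of the length in kb. A percentile is the mid-rank of a gene among those of the table, in percent. GENCODE release 44 held 99.7% of the table's gene IDs and gave gene types, exons, overlaps and transcript ends, and 73.7% of those had the same length as the union of its exons. Coordinates of genes are those of the table. The build is GRCh38 in both, and sequences were taken from GENCODE transcripts. Every 75-base window of each canonical transcript was searched for exact copies on both strands of the assembled chromosomes, outside the gene itself. Where a hexamer occurred more than once in the last 40 bases, the one ending nearest to 15 bases from the end was taken. The search and the levels per kb were tested on simulated data. Genes named are all members, the other genes of both families, the highest and lowest gene of each list of partners under a given length, GAPDH as a reference gene, markers of the cell line, and neighbours or copies of a member. CNOT2 under canonical lengths and the marker names were chosen after their values were seen. The members and lists were chosen with earlier results of these data known. Python 3.11.15, numpy 2.4.6, pandas 2.3.3 and matplotlib 3.10.9 were used.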

Additional observations from a re-analysis of the deposited data

How the results depend on the processing

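No paired analysis was possible because the table has 1 mean per gene and no column per sample, and leaving out single replicates was not possible for the same reason. The median of the members was 6.41 log2 CPM per gene and 5.64 without MTPAP, PABPC1, PABPC4 and PABPN1, which share exon bases with another gene on their strand or have named pseudogenes. On the per kb scales, whose values are not comparable with those per gene, it was 3.07 with the length in the table (added after the data were seen), 2.90 with GENCODE exons and 3.30 with canonical transcripts. Of the 10 members, 8 were above the median of all genes per gene, 7 when placed among protein-coding genes and 6 per kb of the length in the table. MTPAP and ZC3H14 were the members below it on the last scale that were above it per gene. With GENCODE exons or canonical transcripts 5 were above it, as TENT2 was then below as well, at percentiles of 48.1 and 44.7. Among protein-coding genes the lowest shift in a member's percentile was -7.68 points. With the length in the table it was -36.9 points and with canonical transcripts -44 points, both for ZC3H14. On each of these scales 9 of the 10 members had a lower percentile than per gene.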
